A study of Marchantia polymorpha with 18 samples.

Results

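The genes described here rose after wounding in wild-type Marchantia polymorpha and rose less, or not at all, in the desaturase double mutant Mpdes6fad5. RNA was sequenced in 18 libraries of this liverwort, 3 for each of 6 groups: wounded and mock-treated plants of the double mutant Mpdes6fad5, of the mutant Mpcoi1, and of Tak-1, the male wild-type accession. Plants of every group were grown for 3 weeks on agar medium, wounds were made with tweezers, and each library pooled 6 to 8 plants. Sampling followed wounding by 2 h according to the treatment label and by 90 min according to the protocol. The sources used here name neither the alleles nor whether each mutant is 1 line.

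Levels are given as CPM, read counts in genes scaled to an effective library size, which compares libraries but is not scaled to gene length. The effective size could lie above or below the reads in genes. It was 26486598 against 23987436 reads in mock Mpdes6fad5 replicate 1, and 18970638 against 20923299 reads in wounded Tak-1 replicate 1. The wound response of a genotype is the mean log2(CPM + 1) of its 3 wounded libraries minus that of its 3 mock libraries, and the shortfall is the response in Mpdes6fad5 minus the response in Tak-1. Members were chosen by a Tak-1 response of at least 1 and a shortfall of -0.75 or below, among the 13220 genes that reached 1 CPM in at least 3 libraries. This gave 130 members, 10.8% of the 1203 genes with a Tak-1 response of at least 1. Of the members, 38 had a symbol in the gene table and 92 had only an identifier, for which no function is given. The Tak-1 and Mpdes6fad5 libraries selected the members, so their responses are a description with no test. The response of Mpcoi1 was not used by the rule and was tested with limma over all 13220 genes, with Benjamini-Hochberg adjustment. The fit took 1 spread per gene from all 18 libraries, also from those that chose the members. An SE is therefore the same for all 3 genotypes of a gene and is not the spread of Mpcoi1 alone.

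Wounding of a plant releases fatty acids that lipoxygenases and related enzymes turn into oxylipins, among them the jasmonates. COI1 is the F-box receptor of the pathway: with its ligand it binds JAZ repressors, which are then degraded, and transcription factors are set free. In Marchantia the known ligand is dinor-OPDA, a precursor of jasmonic acid in flowering plants. FAD5 is a plastid desaturase that in Arabidopsis acts on palmitic acid, and DES6 is a front-end desaturase on the path to very-long-chain polyunsaturated fatty acids. The title of the study concerns the diversity of ligands that activate the pathway.

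Between 19382332 and 26303510 reads per library fell in genes, and a count of 0 allowed a level of at most 3 reads, which is 0.107 to 0.158 CPM (counting error only). MpCOI1 transcripts stood at 20.4 to 26.6 CPM in wounded Mpcoi1 and 23.6 to 27.0 CPM in mock Mpcoi1, against 63.4 to 72.4 CPM and 84.1 to 90.9 CPM in wounded and mock Tak-1. MpDES6 stood at 43.8, 46.3 and 48.8 CPM in mock Mpdes6fad5, against 59.9, 73.4 and 72.0 CPM in mock Tak-1, and MpFAD5 at 252, 299 and 304 CPM against 423, 482 and 495 CPM. The photosynthetic marker MpRBCS was present throughout, at 109 to 271 CPM, and the sperm protamine gene MpPRM stayed at 0 to 0.089 CPM. The other male germline markers, MpDUO1 and MpGEX2, were present, at 0.566 to 6.85 and 2.0 to 6.77 CPM. The label calls the tissue leaflets and the protocol apical fragments, and no marker here tells these apart. In wounded Tak-1, replicate 3 correlated less with replicates 1 and 2 (Pearson's r across genes, 0.986 and 0.988) than these did with each other (0.995). Without it the rule gave 151 genes, of which 113 were members.

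Several markers of particular cell types had other levels in wounded than in mock libraries. The 3 oil body cell markers summed to 120 to 128 CPM in wounded and 67.1 to 72.0 CPM in mock Mpdes6fad5, to 74.1 to 78.5 and 62.7 to 72.6 CPM in Mpcoi1, and to 139 to 203 and 65.4 to 77.0 CPM in Tak-1. Most of that sum was MpC1HDZ, with wounded means of 117, 71.0 and 175 CPM in Mpdes6fad5, Mpcoi1 and Tak-1, while MpSYP12B and MpERF13 had lower means after wounding in every genotype. The air pore marker MpNOP1 was higher after wounding in all genotypes, with means of 190 and 82.2 CPM in wounded and mock Mpdes6fad5, 222 and 89.2 CPM in Mpcoi1, and 205 and 84.0 CPM in Tak-1. The 3 male germline markers summed to 8.70 to 12.3 CPM in wounded and 4.68 to 5.18 CPM in mock Mpdes6fad5, 6.23 to 9.79 and 3.66 to 3.96 CPM in Mpcoi1, and 4.70 to 8.18 and 4.05 to 5.84 CPM in Tak-1. Wounded and mock sums of the germline markers overlapped in Tak-1 and in neither mutant, while those of the oil body markers overlapped in no genotype. The 2 gemma and gemma cup markers summed to 24.3 to 33.6 CPM over all libraries, and within them MpGCAM1 averaged 1.99 and 0.0475 CPM in wounded and mock Mpdes6fad5, 0.148 and 0 CPM in Mpcoi1, and 3.29 and 0.876 CPM in Tak-1. The 4 division markers summed to less after wounding, at 25.3 to 33.8 and 45.4 to 45.8 CPM in wounded and mock Mpdes6fad5, 27.9 to 39.3 and 50 to 56.9 CPM in Mpcoi1, and 34.4 to 46.5 and 60.7 to 67.9 CPM in Tak-1. The part of these cell types in the members' results was not tested.

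The response of the members had a median of 1.07 in Mpdes6fad5 (range -0.59 to 6.11), of 0.96 in Mpcoi1 (-1.56 to 7.33) and of 2.13 in Tak-1 (1.00 to 7.17). Over all 1203 genes with a Tak-1 response of at least 1, the medians were 1.53, 1.36 and 1.58 in the same order of genotypes, and over all 13220 genes -0.03, -0.05 and -0.06. The median shortfall was -0.97 for members, -0.17 for the 1203 genes and 0.024 for all genes tested. In Mpdes6fad5, 104 members (80.0%) were called as rising and 26 were not, beside 28.1% of all genes. Wounded Mpdes6fad5 libraries all lay above mock Mpdes6fad5 libraries for 110 members, beside 32.3% of all genes. The choice of members used this contrast, so nothing is read from either count. In 5 members, named for this after their values were seen, the response in Mpdes6fad5 was 0 or below: Mp1g27050 (-0.59), Mp7g00550 (-0.28), MpNPF5 (-0.19), Mp3g19060 (-0.13) and Mp3g08970 (-0.0042).

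**Figure D1:**
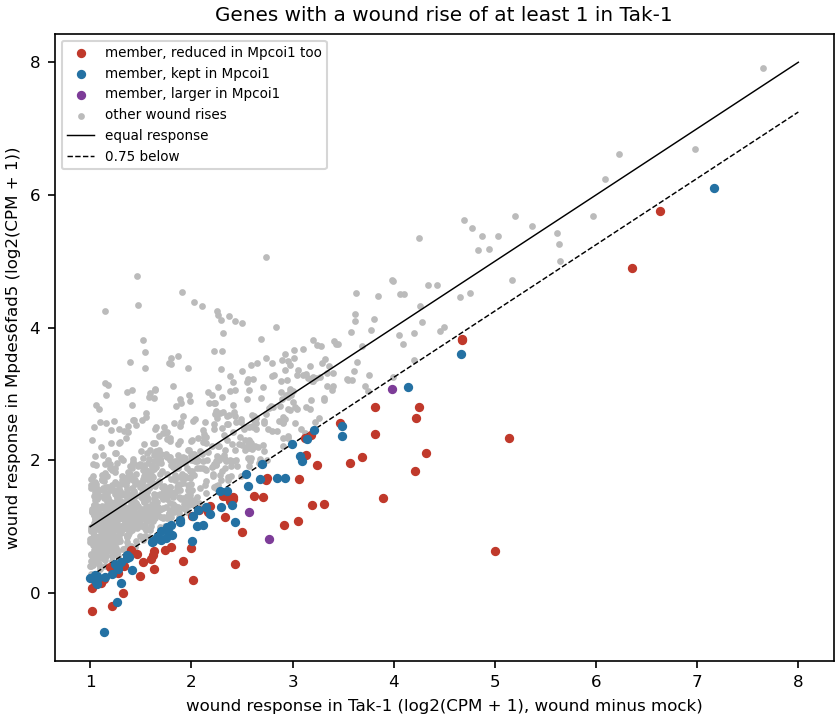
Wound response in Mpdes6fad5 (y axis) against that in Tak-1 (x axis), both in log2(CPM + 1), for the 1203 genes with a Tak-1 response of at least 1. Each point is 1 gene, the solid line marks equal responses, the dashed line the margin of 0.75, and the 130 members on or below it are coloured by their response in Mpcoi1; a point far to the lower right, at 5.01 in Tak-1 and 0.63 in Mpdes6fad5, is Mp2g18790.

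A member was counted as also reduced in Mpcoi1 where its response there was at least 0.75 below that in Tak-1, and 67 of the 130 were, or 51.5%, beside 24.5% of the 1203 genes with a Tak-1 response of at least 1. In 60 members, or 46.2%, the response in Mpcoi1 was within 0.75 of that in Tak-1, here called kept, though a kept response can still be smaller, as for Mp8g07800 with 0.40 in Mpcoi1 against 1.00 in Tak-1. In 3 members it was larger by 0.75 or more. These counts use the Tak-1 libraries that also chose the members, so they carry no test.

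By the limma test of the Mpcoi1 response, 82 members rose there (63.1%), 7 fell (5.38%) and 41 did not pass (31.5%). Of all genes tested, 24.5% rose and 28.5% fell in that genotype. All members had a Tak-1 response of at least 1, unlike most genes tested. The 1203 genes with such a response had a median Mpcoi1 response of 1.36, against 0.96 for members. How many of these 1203 genes rose in Mpcoi1 was not counted. Wounded Mpcoi1 libraries all lay above mock Mpcoi1 libraries for 85 members, beside 28.0% of all genes tested. The classes reduced, kept and larger were cut on the Mpcoi1 response itself, so the calls within them are a description only. All 60 kept members and the 3 larger ones rose in Mpcoi1, where their response was above 0 by definition. Of the 67 reduced members, 19 rose, 7 fell and 41 did not pass, with a median response of 0.03 in Mpcoi1, against 1.22 in Mpdes6fad5 and 2.38 in Tak-1. In 57 of these 67 the response was lower in Mpcoi1 than in Mpdes6fad5. The kept members had medians of 1.00 in Mpdes6fad5, 1.87 in Mpcoi1 and 1.85 in Tak-1.

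Every member passed the filter on low values, since the rule demands it, but 6 reached 1 CPM only in wounded Tak-1 libraries. A further limit is depth in Mpcoi1, where 22 members stayed under 1 CPM in all 6 libraries. All 22 were counted as reduced, and 1 of them rose by the test. Of the 108 members that reached 1 CPM in an Mpcoi1 library, 81 rose, 7 fell and 20 did not pass, and 45 were reduced.

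**Figure D2:**
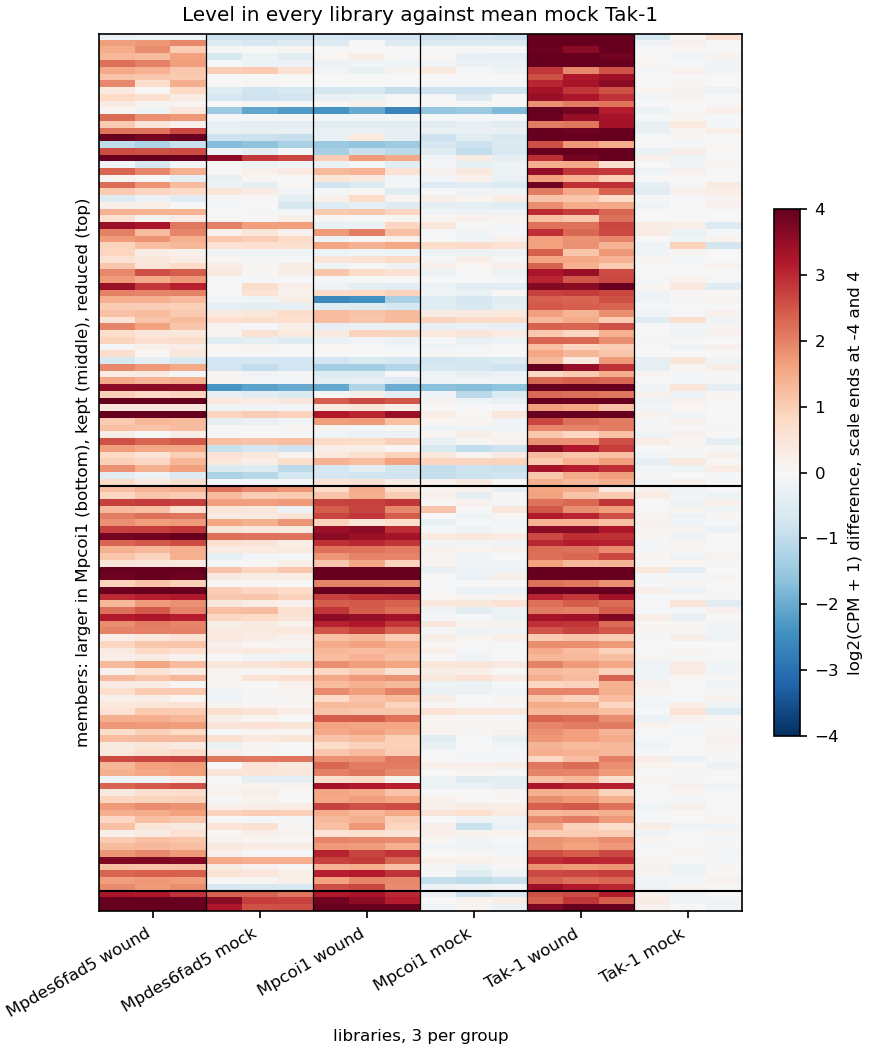
Level of the 130 members (rows) in each of the 18 libraries (columns, 3 per group), as the difference in log2(CPM + 1) from the mean of mock Tak-1, with colours ending at -4 and 4. The top block holds the 67 members reduced in Mpcoi1, whose wounded Mpcoi1 columns stay near mock for the most part; the middle block holds the 60 kept members, and the bottom block the 3 with a larger response in Mpcoi1.

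The largest shortfall belonged to Mp2g18790, a gene with no symbol. It had 0.531, 0.556 and 0.560 CPM in wounded Mpdes6fad5 and no read in mock Mpdes6fad5. Wounded Mpcoi1 had 0.0853, 0.0442 and 0.0445 CPM, and mock Mpcoi1 0, 0.0406 and 0 CPM, all within the limit of detection. Wounded Tak-1 had 67.6, 39.3 and 67.1 CPM, and mock Tak-1 0.103, 0.883 and 1.73 CPM. Every wounded Mpdes6fad5 library thus lay far below every wounded Tak-1 library, and the responses were 0.63 in Mpdes6fad5, 0.06 ± 0.24 (SE) in Mpcoi1 and 5.01 in Tak-1. This SE comes from the spread within all 6 groups, which was wider in Tak-1 than in Mpcoi1. The Mpcoi1 response did not pass (limma, adjusted p = 0.846).

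The other members of largest shortfall that lack a symbol were Mp6g09000, Mp7g03650 and Mp5g21750. Mp6g09000 reached 3.98, 4.17 and 4.88 CPM in wounded Mpdes6fad5, 0.0853, 0.575 and 0.089 CPM in wounded Mpcoi1, and 57.3, 47.2 and 56.4 CPM in wounded Tak-1. Its mock libraries were all under 0.8 CPM, and the Mpcoi1 response of 0.24 did not pass (limma, adjusted p = 0.170), although a constant of 0.1 CPM in place of 1 CPM gave a call (adjusted p = 0.0355; 0.0355 to 0.721 over 29 alternatives). Mp7g03650 stood at 20.1, 19.4 and 25.3 CPM in wounded Mpdes6fad5, 7.85, 9.46 and 7.34 CPM in wounded Mpcoi1, and 188, 165 and 122 CPM in wounded Tak-1, with 4.38 to 8.32 CPM in the mock libraries of all 3 genotypes. Wounded libraries of the 3 genotypes did not overlap for these 2 genes, with Tak-1 highest and Mpcoi1 lowest. Mp5g21750 had 4.38, 3.75 and 2.80 CPM in wounded Mpdes6fad5, at most 0.0884 CPM in wounded Mpcoi1, and 27.3, 22.8 and 18.5 CPM in wounded Tak-1.

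Lipoxygenases add oxygen to polyunsaturated fatty acids, the first step of oxylipin synthesis. Of 19 oxylipin genes measured, 7 had a Tak-1 response of at least 1 and 3 were members, all lipoxygenase genes and all reduced in Mpcoi1. MpLOX4 (Mp5g21680) had 23.6, 19.7 and 30.5 CPM in wounded Mpdes6fad5, and 7.44, 4.52 and 3.86 CPM in mock Mpdes6fad5. In Mpcoi1 it had 3.54, 4.78 and 2.71 CPM after wounding, and 7.03, 7.55 and 5.79 CPM after mock treatment. In Tak-1 it had 394, 331 and 204 CPM after wounding, and 19.1, 22.5 and 25.6 CPM after mock treatment. Both mutants thus lay below Tak-1 in mock plants already, and wounded libraries lay above mock libraries in Mpdes6fad5 and Tak-1 but below them in Mpcoi1.

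The responses of MpLOX4 were 2.05 in Mpdes6fad5, -0.75 ± 0.23 in Mpcoi1 and 3.69 in Tak-1. The fall in Mpcoi1 passed (limma, adjusted p = 0.0119), but not without wounded Mpcoi1 replicate 3 (adjusted p = 0.0583), with a constant of 5 CPM (0.0586) or with voom on read counts (0.105), within a range of 0.0032 to 0.105 over 29 alternatives. MpLOX8 (Mp2g12220) had 3.19, 2.64 and 2.54 CPM in wounded Mpdes6fad5, 0.938, 1.11 and 0.445 CPM in wounded Mpcoi1, and 7.54, 4.83 and 9.42 CPM in wounded Tak-1. Its response in Mpcoi1 was -0.03 ± 0.22 and did not pass (limma, adjusted p = 0.915). MpLOX6 (Mp2g12180) had 1.11, 0.417 and 0.305 CPM in wounded Mpdes6fad5, at most 0.0442 CPM in wounded Mpcoi1, and 5.06, 1.49 and 2.82 CPM in wounded Tak-1. For both genes the wounded Mpdes6fad5 libraries lay below all wounded Tak-1 libraries and above all wounded Mpcoi1 libraries.

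Over the 19 oxylipin genes, 3 rose, 10 fell and 6 did not pass in Mpcoi1, with a median response of -0.29, beside -0.05 over all genes. Jasmonate signalling gave no member among its 4 measured genes. The JAZ repressor gene MpJAZ (Mp6g06230) responded by 2.61 in Mpdes6fad5, 0.55 in Mpcoi1 and 2.62 in Tak-1, so its shortfall in Mpdes6fad5 was -0.01, far outside the margin.

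Dirigent proteins steer the coupling of phenoxy radicals, and polyphenol oxidases oxidise phenols to quinones. These families gave more members than any other list: 9 of 82 measured genes, of which 23 had a Tak-1 response of at least 1. The 9 were MpDIR61, MpDIR41, MpDIR65, MpDIR42, MpPPO31, MpDIR39, MpDIR57, MpPPO22 and MpDIR18, and all were reduced in Mpcoi1. There, 1 of the 9 rose, 1 fell and 7 did not pass. Over all 82 genes, 15 rose, 35 fell and 32 did not pass in Mpcoi1, with a median response of -0.25, beside -0.05 over all genes.

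MpDIR39 (Mp5g16510) had 56.5, 45.7 and 53.3 CPM in wounded Mpdes6fad5 and 0.831, 0.784 and 0.706 CPM in mock Mpdes6fad5. Wounded Mpcoi1 had 1.66, 3.23 and 1.56 CPM, and mock Mpcoi1 0.831, 1.34 and 1.08 CPM. Wounded Tak-1 had 242, 252 and 308 CPM, and mock Tak-1 2.07, 2.45 and 2.26 CPM. Its transcripts were thus strongly wound-induced in Mpdes6fad5, though all 3 libraries lay below those of wounded Tak-1, and the wounded level in Mpcoi1 was near that of mock Tak-1. The responses were 4.89 in Mpdes6fad5, 0.56 ± 0.16 in Mpcoi1 and 6.36 in Tak-1. The rise in Mpcoi1 passed (limma, adjusted p = 0.00615) but not with a constant of 5 CPM (0.0603) or with voom (0.0573), over a range of 0.00206 to 0.0603.

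MpDIR61 (Mp5g16460) had 1.81, 2.64 and 1.07 CPM in wounded Mpdes6fad5, against 14.5, 11.3 and 16.7 CPM in wounded Tak-1. MpDIR41 (Mp5g16480) had 1.19, 1.11 and 1.07 CPM in wounded Mpdes6fad5, against 4.85, 8.27 and 9.59 CPM in wounded Tak-1. MpDIR65 (Mp5g16440) had 2.83, 0.603 and 1.78 CPM in wounded Mpdes6fad5, against 7.38, 8.93 and 11.3 CPM in wounded Tak-1. None of these genes had a read in any of the 6 Mpcoi1 libraries, and mock libraries of the other genotypes held at most 0.0942 CPM. MpDIR42 (Mp5g16470) had 0.265, 0.0927 and 0.102 CPM in wounded Mpdes6fad5, 0, 0.133 and 0 CPM in wounded Mpcoi1, and 2.58, 3.21 and 3.56 CPM in wounded Tak-1. In all 4 genes the wounded Mpdes6fad5 libraries lay below the wounded Tak-1 libraries.

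These 5 dirigent genes lie together: of the 8 listed identifiers from Mp5g16440 to Mp5g16510, 5 were tested, and all 5 were members reduced in Mpcoi1. Neighbouring copies may share reads, and the sources used here give neither the handling of such reads nor the strand, so the values of single copies are uncertain. The size of a shortfall also depends on the constant added to the CPM where a mock group is near 0. MpDIR42 had a shortfall of -1.81 with 1 CPM, -3.54 with 0.1 CPM and -0.65 with 5 CPM. MpDIR61 had -2.46, -3.10 and -1.49 with the same constants, and neither changed sign. Other members moved the opposite way with 0.1 CPM. MpPPO31 had a shortfall of -1.57 with 1 CPM and -0.56 with 0.1 CPM, which lies outside the margin of -0.75. MpDIR39 had -1.47 and -0.93, and Mp6g09000 -2.80 and -1.51, with 1 and 0.1 CPM. With 5 CPM, MpLEA-like14 and MpLEA-like18 lay outside the margin too, at -0.49 and -0.38. So did MpDIR42, MpLOX8 (-0.71), MpLOX6 (-0.47), MpPR15c (-0.64), MpCYP94L1 (-0.67) and MpNBS-LRR11 (-0.53). Further cases were MpBHLH33 (-0.43), MpNPF17 (-0.41) and MpDIR57 (-0.41). MpDIR39, MpDIR61, MpDIR65 and MpDIR41 stayed beyond the margin with 5 CPM, at -1.93, -1.49, -1.08 and -1.02.

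MpDIR57 (Mp5g20050) had 0.575, 0.0927 and 0.254 CPM in wounded Mpdes6fad5, at most 0.0445 CPM in wounded Mpcoi1, and 1.32, 1.12 and 3.56 CPM in wounded Tak-1. Its shortfall of -1.24 was -0.89 without wounded Tak-1 replicate 3, the highest library. MpDIR18 had a shortfall of -0.79 and an Mpcoi1 response of 0.29 that did not pass (limma, adjusted p = 0.164).

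MpPPO22 (Mp5g18380) had the lowest Mpcoi1 response of the 130 members. It had 404, 404 and 364 CPM in wounded Mpdes6fad5, and 137, 131 and 172 CPM in mock Mpdes6fad5. In Mpcoi1 it had 23.7, 26.0 and 59.4 CPM after wounding, and 104, 92.8 and 104 CPM after mock treatment. In Tak-1 it had 777, 747 and 857 CPM after wounding, and 129, 152 and 163 CPM after mock treatment. Mock levels overlapped between Mpdes6fad5 and Tak-1, while wounded libraries lay above mock libraries in both and below them in Mpcoi1. The responses were 1.42 in Mpdes6fad5, -1.56 ± 0.22 in Mpcoi1 and 2.42 in Tak-1, and the fall in Mpcoi1 passed (limma, adjusted p = 8.49e-06). MpPPO31 (Mp3g24060) had 4.60, 4.59 and 6.82 CPM in wounded Mpdes6fad5, no read in any Mpcoi1 library, and 19.2, 17.3 and 32.1 CPM in wounded Tak-1. Mock libraries held no read of it in Mpdes6fad5 and at most 0.487 CPM in Tak-1.

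**Figure D3:**
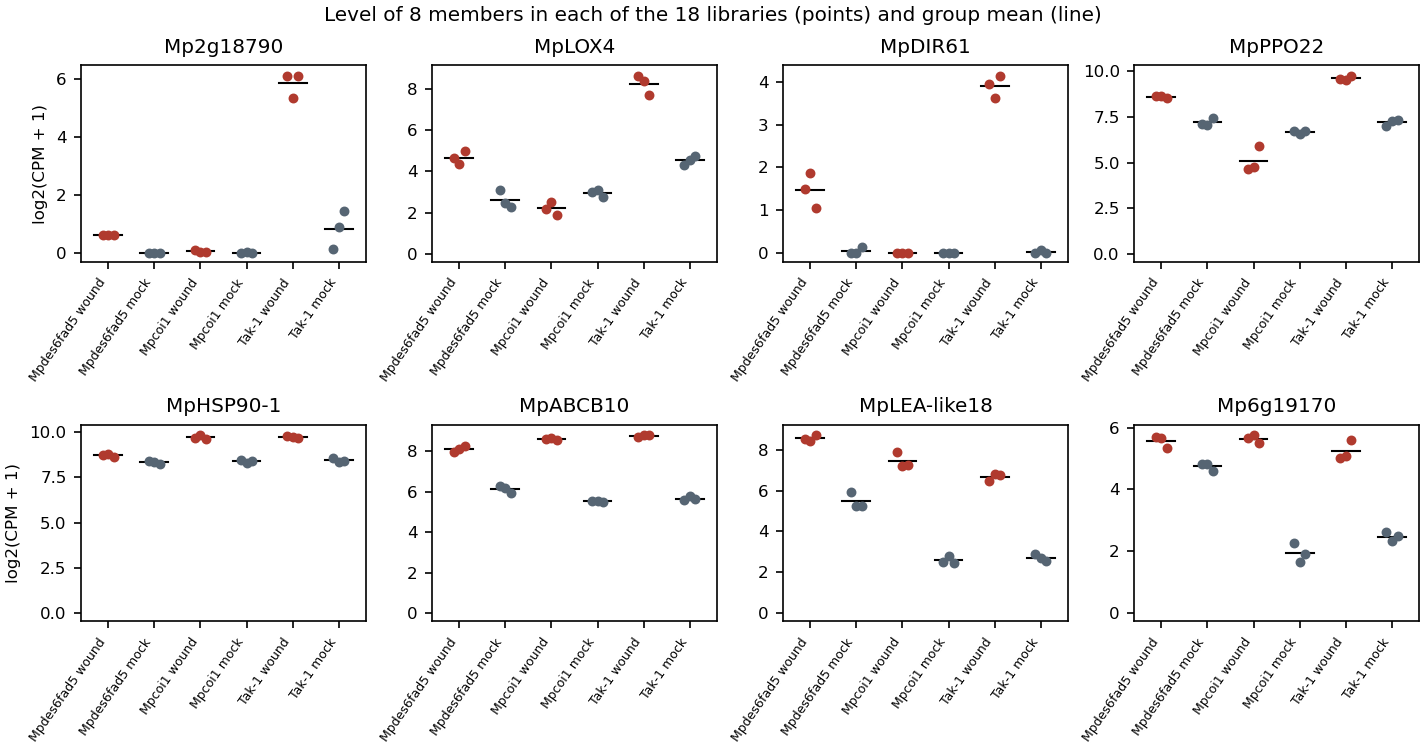
Level of 8 members in every library, in log2(CPM + 1), for wounded (red) and mock (grey) plants of Mpdes6fad5, Mpcoi1 and Tak-1; points are libraries, 3 per group, and the line is their mean. In the top row, members reduced in Mpcoi1, wounded Mpcoi1 libraries lie at or below 59.4 CPM for MpPPO22 and at 0 for MpDIR61; in the bottom row, MpHSP90-1 and MpABCB10 respond in Mpcoi1 by 1.31 and 3.07, close to the 1.28 and 3.09 in Tak-1, and MpLEA-like18 and Mp6g19170 have a raised mock level in Mpdes6fad5.

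Other members reduced in Mpcoi1 coded for further enzymes of secondary metabolism, for transporters and for a defence protein. MpDOXC16 (Mp3g11070), of the 2-oxoglutarate-dependent dioxygenases, had 2.48, 1.90 and 2.75 CPM in wounded Mpdes6fad5, 1.49, 1.37 and 1.60 CPM in wounded Mpcoi1, and 40.6, 22.3 and 18.3 CPM in wounded Tak-1. Mock levels were 1.13 to 1.88 CPM in Mpdes6fad5, 2.84 to 3.71 CPM in Mpcoi1 and 5.74 to 6.33 CPM in Tak-1, so Tak-1 was highest in both treatments. In Mpcoi1 the gene fell by 0.79 ± 0.20 (limma, adjusted p = 0.00328), a call lost with a constant of 5 CPM (0.0612) and with voom (0.0727), over a range of 0.000101 to 0.0727. MpPKS/CHS2 (Mp2g07060), of the chalcone synthase family at the entry to flavonoids, was the only member among 60 phenylpropanoid genes measured, 18 of which had a Tak-1 response of at least 1. It had 23.6, 24.0 and 18.4 CPM in wounded Mpdes6fad5, 12.8, 13.0 and 19.2 CPM in wounded Mpcoi1, and 34.5, 40.5 and 53.9 CPM in wounded Tak-1. Its mock libraries, at 15.2 to 21.0 CPM in all genotypes, overlapped the wounded libraries of both mutants but not those of Tak-1. Over the 18 phenylpropanoid genes, the median difference in response between Mpdes6fad5 and Tak-1 was 0.99, opposite in sign to the shortfall of MpPKS/CHS2.

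MpPR15c (Mp2g01620), of the germin-like PR-15 family, was the only member among 65 defence genes, 4 of which had a Tak-1 response of at least 1. It had 14.1, 8.85 and 11.1 CPM in wounded Mpdes6fad5, 0.213, 0.0884 and 0.0445 CPM in wounded Mpcoi1, and 16.8, 16.0 and 24.2 CPM in wounded Tak-1. Its response in Mpcoi1 was 0.03 ± 0.22 and did not pass (limma, adjusted p = 0.916). Both other genotypes responded by more than 1, at 2.80 in Mpdes6fad5 and 3.82 in Tak-1. Over the 4 defence genes, the median difference in response between Mpdes6fad5 and Tak-1 was 0.84, opposite in sign to the shortfall of MpPR15c. MpCYP821-like (Mp7g05870), a cytochrome P450 gene, reached 13.7, 12.3 and 13.0 CPM in wounded Mpdes6fad5, 6.87, 7.78 and 4.85 CPM in wounded Mpcoi1, and 35.6, 34.2 and 31.8 CPM in wounded Tak-1. It rose in Mpcoi1 by 0.51 ± 0.19 (limma, adjusted p = 0.0298), although wounded and mock Mpcoi1 libraries overlapped. That call was lost in 6 of 29 alternatives, 4 of them leaving out 1 Mpcoi1 library (mock replicate 2, adjusted p = 0.212; mock replicate 3, 0.0586; wounded replicate 1, 0.0877; wounded replicate 2, 0.133), over a range of 0.00223 to 0.212.

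Transport gave 3 members among 133 genes measured, 22 of which had a Tak-1 response of at least 1. MpNPF5 (Mp3g03470), of the nitrate and peptide transporter family, had 15.7, 10.6 and 16.1 CPM in wounded Mpdes6fad5, 14.2, 16.1 and 12.3 CPM in wounded Mpcoi1, and 49.1, 51.1 and 28.0 CPM in wounded Tak-1. Its mock libraries held 12.8 to 18.5 CPM in all genotypes, so only the wounded Tak-1 libraries stood out. MpNPF17 (Mp3g13820) was weak and variable, with 3.22, 1.21 and 4.58 CPM in wounded Tak-1 and 0.362, 1.36 and 0.531 CPM in mock Tak-1. It was the only member whose wounded and mock Tak-1 libraries overlapped. MpEDS5 was named after its values were seen. It is related to an Arabidopsis transporter needed for salicylic acid synthesis, and it had 65.8, 64.3 and 62.4 CPM in wounded Mpdes6fad5, 22.3, 22.0 and 19.1 CPM in wounded Mpcoi1, and 179, 170 and 163 CPM in wounded Tak-1.

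Mp7g06530, with no symbol, was among the 5 members with the highest CPM in wounded Tak-1. It had 152, 135 and 107 CPM in wounded Mpdes6fad5, 71.1, 71.5 and 82.2 CPM in wounded Mpcoi1, and 974, 826 and 646 CPM in wounded Tak-1. Mock libraries held 48.4 to 54.0 CPM in Mpdes6fad5, 61.0 to 87.0 CPM in Mpcoi1 and 80.5 to 94.1 CPM in Tak-1. It rose in Mpdes6fad5 by 1.33 and in Tak-1 by 3.19, and in Mpcoi1 its response of -0.03 ± 0.15 did not pass (limma, adjusted p = 0.886).

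MpBHLH33 (Mp1g01110), the only member among 38 genes of the bHLH transcription factors, had responses of 0.58 in Mpdes6fad5, 0.52 ± 0.19 in Mpcoi1 and 1.37 in Tak-1. The rise in Mpcoi1 passed narrowly (limma, adjusted p = 0.0295) and was lost in 7 of 29 alternatives, among them leaving out mock replicate 1 (0.0694), 2 (0.0595) or 3 (0.0620) or wounded replicate 1 (0.0574) or 3 (0.109) of Mpcoi1, over a range of 0.00581 to 0.109. Its wounded levels overlapped between Mpdes6fad5 and Tak-1, at 5.04, 4.59 and 6.87 CPM against 5.43, 7.21 and 9.06 CPM.

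A different set of members responded in Mpcoi1 much as in Tak-1 and fell short in Mpdes6fad5. MpHSP90-1 (Mp1g26610), of the HSP90 chaperones, had 419, 437 and 391 CPM in wounded Mpdes6fad5 and 341, 322 and 305 CPM in mock Mpdes6fad5. In Mpcoi1 it had 808, 904 and 775 CPM after wounding and 346, 315 and 340 CPM after mock treatment. In Tak-1 it had 871, 852 and 800 CPM after wounding and 370, 329 and 340 CPM after mock treatment. Mock levels overlapped in all genotypes, and the wounded Mpdes6fad5 libraries lay below every wounded library of the others. Its responses were 0.36 in Mpdes6fad5, 1.31 ± 0.07 in Mpcoi1 (limma, adjusted p = 1.74e-11) and 1.28 in Tak-1.

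MpABCB10 (Mp7g04390), of the ABC transporters, had 249, 274 and 305 CPM in wounded Mpdes6fad5, 381, 405 and 367 CPM in wounded Mpcoi1, and 409, 439 and 437 CPM in wounded Tak-1. Mock levels were 60.0 to 75.5 CPM in Mpdes6fad5, 44.3 to 45.3 CPM in Mpcoi1 and 46.3 to 53.6 CPM in Tak-1. The mutant Mpdes6fad5 was thus higher than the others before and lower after wounding, and the responses were 1.99 in Mpdes6fad5, 3.07 ± 0.08 in Mpcoi1 (limma, adjusted p = 1.1e-15) and 3.09 in Tak-1. MpAP2B3-2 (Mp5g11100), which carries the name of the AP2 and B3 DNA-binding domains, had 60.7, 55.6 and 62.0 CPM in wounded Mpdes6fad5, 103, 103 and 93.4 CPM in wounded Mpcoi1, and 107, 105 and 84.5 CPM in wounded Tak-1. MpPPR_72 (Mp4g06330), of the pentatricopeptide repeat proteins that act on organelle RNA, had 62.1, 71.8 and 63.5 CPM in wounded Mpdes6fad5, 130, 129 and 127 CPM in wounded Mpcoi1, and 152, 142 and 117 CPM in wounded Tak-1. For both genes wounded Mpcoi1 overlapped wounded Tak-1 and wounded Mpdes6fad5 lay below both, and the Mpcoi1 rises were 2.00 ± 0.08 and 1.99 ± 0.08 (limma, adjusted p = 2.25e-13 and 3.44e-13).

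MpR2R3-MYB5 (Mp8g11870), a MYB transcription factor gene and the only member among 37 MYB genes measured, had 28.8, 39.1 and 35.7 CPM in wounded Mpdes6fad5, 56.8, 52.7 and 56.2 CPM in wounded Mpcoi1, and 62.7, 53.2 and 43.0 CPM in wounded Tak-1. It rose in Mpcoi1 by 1.25 ± 0.12 (limma, adjusted p = 6.71e-08), and in Mpdes6fad5 wounded and mock libraries overlapped. MpKAI2B (Mp2g04930), of the alpha/beta hydrolase family of the karrikin receptor, had 215, 229 and 301 CPM in wounded Mpdes6fad5, 402, 434 and 270 CPM in wounded Mpcoi1, and 562, 618 and 398 CPM in wounded Tak-1. In both Mpcoi1 and Tak-1 replicate 3 was the lowest wounded library, and the Mpcoi1 rise of 0.91 ± 0.18 passed (limma, adjusted p = 0.000291). MpNBS-LRR11 (Mp4g08790), of the intracellular immune receptor family, was weak, with 1.99, 1.76 and 0.916 CPM in wounded Mpdes6fad5, 5.59, 6.94 and 3.60 CPM in wounded Mpcoi1, and 5.85, 3.39 and 2.90 CPM in wounded Tak-1. MpDHAR1 and MpC3H1, named after their values were seen, code for a dehydroascorbate reductase and a CCCH zinc finger protein by their symbols. MpDHAR1 had 155, 188 and 191 CPM in wounded Mpdes6fad5, 246, 272 and 237 CPM in wounded Mpcoi1, and 324, 319 and 289 CPM in wounded Tak-1. MpC3H1 had 55.7, 56.4 and 52.2 CPM in wounded Mpdes6fad5, 112, 111 and 94.2 CPM in wounded Mpcoi1, and 76.4 to 106 CPM in wounded Tak-1. Both rose in Mpcoi1 (limma, adjusted p = 7.26e-12 and 5.04e-12), and wounded Mpdes6fad5 was lowest for both.

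MpUGT35 (Mp8g09770), a glycosyltransferase gene, was the member nearest to the margin. It had 132, 116 and 128 CPM in wounded Mpdes6fad5, 212, 226 and 133 CPM in wounded Mpcoi1, and 386, 327 and 288 CPM in wounded Tak-1. Its response in Mpcoi1, at 2.51, differed from that in Tak-1 by -0.70, so it counted as kept by a small distance.

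**Figure D4:**
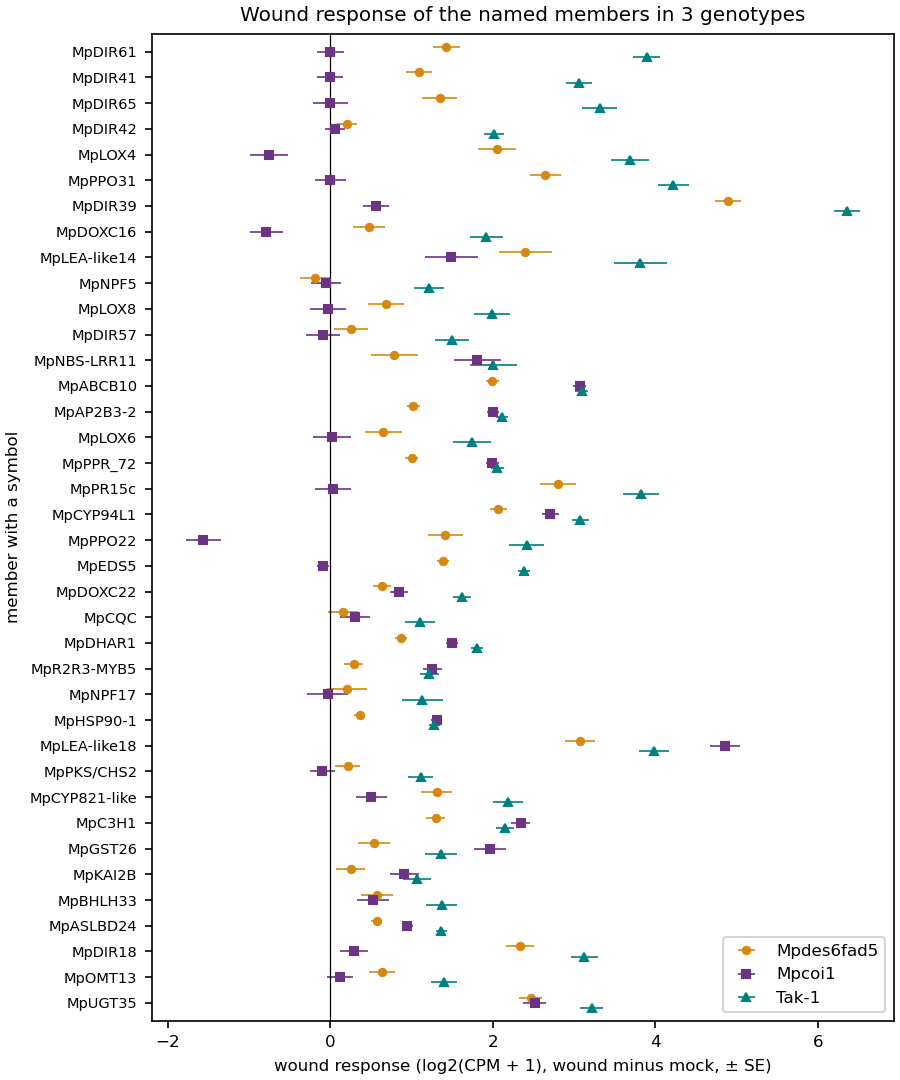
Wound response of the 38 members with a symbol in Mpdes6fad5 (orange circles), Mpcoi1 (purple squares) and Tak-1 (green triangles), in log2(CPM + 1). Bars are 1 SE from limma, with 1 spread per gene over all 18 libraries. From top to bottom the shortfall becomes smaller; the purple squares lie near or below 0 for the dirigent, polyphenol oxidase and lipoxygenase genes, apart from MpDIR39 at 0.56 and MpDIR18 at 0.29, and beside the green triangles for MpABCB10, MpAP2B3-2, MpPPR_72, MpR2R3-MYB5 and MpHSP90-1.

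A response can be small because the wounded level is lower or because the mock level is higher, so the shortfall was divided into these parts. In 93 members the wounded level was at least 0.5 below that of Tak-1 on the log2 scale and the mock level was not 0.5 above it, with a median wounded difference of -0.98 and a median mock difference of -0.0021. In 27 members the mock level in Mpdes6fad5 was at least 0.5 above Tak-1 and the wounded level was not 0.5 below it, with medians of 1.04 for mock and 0.087 for wounded plants. Mp5g02620 met both conditions, and 9 members met neither. In bulk tissue, fewer cells of a type and less RNA per cell cannot be told apart in such levels. Wounded Mpdes6fad5 libraries all lay below wounded Tak-1 libraries for 105 members, beside 27.3% of all genes tested. Mock Mpdes6fad5 libraries all lay above mock Tak-1 libraries for 44 members, and the share of all genes was not counted. Some of these 44 belong to the 93, such as MpAP2B3-2 and MpR2R3-MYB5, with mock differences of 0.37 and 0.33. Both contrasts are ones that the rule used.

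The response in Mpcoi1 is given for both kinds of shortfall as a description. Of the 93 members with a lower wounded level, 55 were reduced in Mpcoi1 and 38 were kept. Of the 27 with a higher mock level, 8 were reduced, 16 kept and 3 larger. By the limma test of the Mpcoi1 response, 24 of these 27 rose, 0 fell and 3 did not pass. Of the 93, 50 rose, 7 fell and 36 did not pass. Over all genes tested, 24.5% rose and 28.5% fell in Mpcoi1. The 93 include members with no read in any Mpcoi1 library, such as MpDIR61 and MpPPO31, which could not pass.

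For 16 of the 27 members with a higher mock level, the wounded level in Mpdes6fad5 was not below that of Tak-1. MpLEA-like18 (Mp4g05730), of the late embryogenesis abundant proteins that accumulate in drying tissue, had 371, 342 and 421 CPM in wounded Mpdes6fad5 and 60.7, 37.1 and 37.6 CPM in mock Mpdes6fad5. In Mpcoi1 it had 237, 146 and 151 CPM after wounding and 4.72, 5.97 and 4.54 CPM after mock treatment. In Tak-1 it had 87.2, 113 and 107 CPM after wounding and 6.31, 5.46 and 4.78 CPM after mock treatment. All Mpdes6fad5 libraries were above the Tak-1 libraries of the same treatment, with a mock difference of 2.79 and a smaller wounded difference of 1.88 on the log2 scale. Its responses were 3.07 in Mpdes6fad5, 4.85 ± 0.19 in Mpcoi1 (limma, adjusted p = 1.61e-13) and 3.98 in Tak-1, the largest of these in Mpcoi1.

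MpLEA-like14 (Mp3g08260) had 116, 101 and 154 CPM in wounded Mpdes6fad5, 4.78, 8.22 and 7.21 CPM in wounded Mpcoi1, and 20.9, 39.3 and 72.1 CPM in wounded Tak-1. Mock libraries held 33.2, 19.2 and 17.2 CPM in Mpdes6fad5, 1.62, 2.48 and 1.17 CPM in Mpcoi1, and 2.28, 1.56 and 1.77 CPM in Tak-1. Its wounded levels did not overlap between genotypes, with Mpdes6fad5 highest and Mpcoi1 lowest. The rise in Mpcoi1 was 1.49 ± 0.33 (limma, adjusted p = 0.000902; 0.0685 with voom, over a range of 6.79e-05 to 0.0685). These were the only 2 members among 64 genes of the LEA and abscisic acid list, 27 of which had a Tak-1 response of at least 1. Of these 64 genes, 41 rose, 8 fell and 15 did not pass in Mpcoi1, with a median response of 1.03, beside -0.05 over all genes. Over the 27, the median difference in response between Mpdes6fad5 and Tak-1 was 0.63, opposite in sign to the shortfall of the 2 members.

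MpGST26 (Mp5g00690), of the glutathione transferases, had 119, 125 and 128 CPM in wounded Mpdes6fad5 and 83.8, 84.8 and 86.5 CPM in mock Mpdes6fad5, against 33.6, 45.2 and 79.4 CPM in wounded and 23.1, 15.9 and 17.7 CPM in mock Tak-1. In Mpcoi1 it rose by 1.96 ± 0.20 (limma, adjusted p = 1.51e-07), with 68.9, 67.0 and 84.8 CPM after wounding and 18.7, 17.8 and 17.7 CPM after mock treatment. MpCYP94L1 (Mp5g04140) belongs to a P450 family whose Arabidopsis members oxidise the hormone jasmonoyl-isoleucine. It had 44.4, 48.3 and 52.0 CPM in wounded Mpdes6fad5, 36.6, 40.2 and 41.2 CPM in wounded Mpcoi1, and 46.4, 39.1 and 57.3 CPM in wounded Tak-1. Wounded levels thus overlapped between Mpdes6fad5 and Tak-1, while mock levels did not, at 11.0, 11.4 and 9.75 CPM in Mpdes6fad5 against 4.45, 4.73 and 4.91 CPM in Tak-1.

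Mp6g20040, without a symbol and also among the 5 members with the highest CPM in wounded Tak-1, combined a higher mock level with a slightly lower wounded level. It had 581, 564 and 563 CPM in wounded and 252, 261 and 245 CPM in mock Mpdes6fad5, against 673, 717 and 733 CPM in wounded and 193, 165 and 166 CPM in mock Tak-1. Mp6g19170 and Mp7g10210, named after their values were seen, are the other members with a larger response in Mpcoi1. Mp6g19170 had 27.1, 27.6 and 23.4 CPM in mock Mpdes6fad5, 3.74, 2.11 and 2.75 CPM in mock Mpcoi1, and 5.12, 3.97 and 4.56 CPM in mock Tak-1. Its wounded levels overlapped in all 3 genotypes, between 31.3 and 53.4 CPM.

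**Figure D5:**
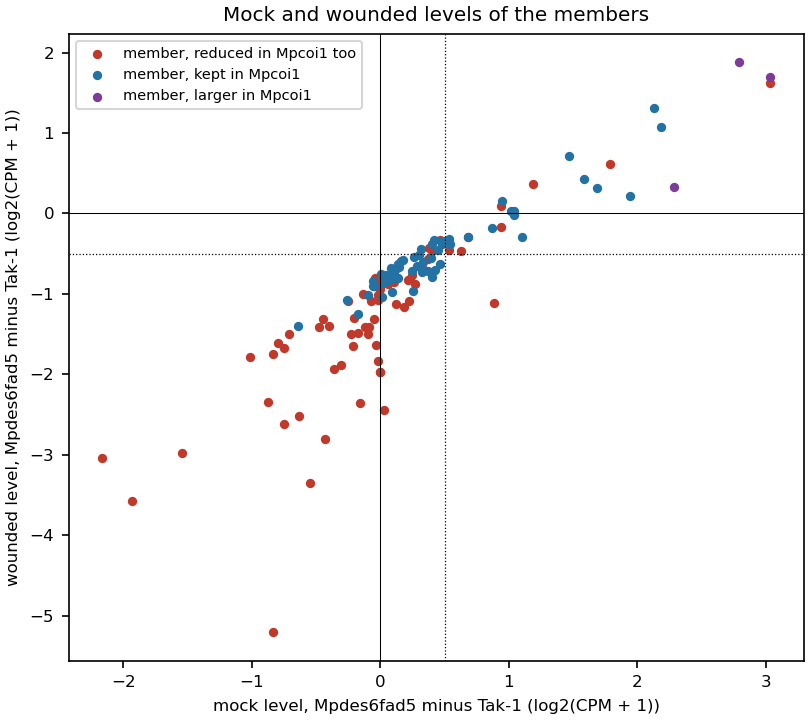
Difference between Mpdes6fad5 and Tak-1 in mock level (x axis) and in wounded level (y axis), both in log2(CPM + 1), for the 130 members, coloured by their response in Mpcoi1. Dotted lines mark a mock difference of 0.5 and a wounded difference of -0.5; the 93 members with a lower wounded level lie to the lower left of both lines, and the 27 with a higher mock level to the upper right.

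Of 21 gene lists read over the tested genes, 12 held a member and 9 held none. Besides those given above, hormone conjugation had 1 member of 4 measured genes (MpCYP94L1), AP2/ERF 1 of 21 (MpAP2B3-2), cytochrome P450 and UGT 3 of 118, and glutathione and redox 1 of 46. The lists with no member were jasmonate signalling, WRKY, NAC with GRAS, C2H2, bZIP and HSF, desaturase and lipid, class III peroxidase, cell wall, terpenoid, kinase and phosphatase, and receptor-like kinase. Among these, 8 of 13 WRKY genes and 13 of 79 receptor-like kinase genes had a Tak-1 response of at least 1, with median shortfalls of -0.03 and -0.20 over those genes. In all, 26 members belonged to a list, and 12 members had a symbol outside the lists.

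The rule was also applied to the libraries of 2 replicate numbers at a time, which gave sets of genes that differ from the members. In the libraries of the number left out, the median shortfall of each set was still below 0 but smaller in size than in the choice. Those libraries also helped to choose the members, so the values describe the spread between replicates and are no test of the members. With replicate 1 held out, 117 genes were chosen, with a median shortfall of -0.995 in the choice and -0.94 in the held-out libraries. With replicate 2 held out, 137 genes gave -1.02 and -0.83. With replicate 3 held out, 168 genes gave -0.9985 and -0.66, beside held-out medians of -0.17, -0.17 and -0.04 over all genes with a Tak-1 response of at least 1 in these choices. In held-out libraries the shortfall was below 0 for 105, 133 and 151 of the chosen genes, and at the margin of -0.75 or beyond for 72, 80 and 76. The same counts were not made over all genes with a Tak-1 response of at least 1. Their held-out medians were below 0 too, so nothing is read from the counts.

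Just inside the margin were Mp8g13250, Mp1g02150 and MpUGT35, with shortfalls of -0.7543, -0.7527 and -0.7506, and just outside it Mp5g24090, Mp3g06030 and MpRLK-Pelle_L-LEC28, with -0.7462, -0.7449 and -0.7394. Just inside the Tak-1 threshold were Mp8g07800 (1.00), Mp7g00550 (1.01) and Mp5g19250 (1.02), and just outside it Mp8g15080 (0.87) and Mp8g01820 (0.92). Leaving out any 1 of the 18 libraries in turn left 80 of the 130 members in every such choice.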

How the data were processed

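The deposited table holds log2 values for 20574 listed genes in 18 libraries: log2 CPM with a prior count that the authors added, as the shared floor of -3.50 (0.0886 CPM) shows. Per the submitters' processing notes, the tools were Trim Galore, HISAT2, HTSeq and edgeR; the sources used here give no versions, genome build or strand. CPM was 2 to the power of the value minus the floor. Values up to 1000 reads then came out as whole reads within 0.02. Genes reaching 1 CPM in 3 libraries were kept.

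Values of log2(CPM + 1) were fitted with limma 3.58.1 (R 4.3.3) in 1 model of 6 groups, with eBayes and a mean trend. Calls were made at 0.05 after Benjamini-Hochberg adjustment over all genes tested. The constant of 1 CPM makes changes of weak genes smaller than their CPM ratios. The fit was tested on simulated data. Replicates pool separate plants, per the labels, but the p-values measure only the spread between these samples.

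Members, lists and alternatives were chosen with earlier results of these data known. Symbols came from MpTak2_v7.1, whose locus tags matched 17641 listed identifiers; the builds may differ, so no coordinates are printed. Named genes were the 20 members with a symbol and the largest shortfall, the 5 of any name with the largest shortfall, the 5 with the highest CPM in wounded Tak-1, the 6 with a symbol most reduced and the 6 nearest to Tak-1 in Mpcoi1, up to 4 per list, 3 genes on each side of each threshold, and MpCOI1, MpDES6, MpFAD5 and MpJAZ; 1 of these genes is not reported here. Alternatives were other constants, filters, scalings, margins, voom on recovered reads, a replicate block and leaving out each library. Python 3.11.15, pandas 2.3.3, numpy 2.4.6 and matplotlib 3.10.9 were used.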

Additional observations from a re-analysis of the deposited data

Results flagged for a closer look

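In 8 members all wounded libraries lay above all mock libraries in Tak-1 and below them in Mpcoi1. This opposite movement was seen in the libraries, and the difference between the genotypes was not tested. How many of all genes tested moved this way was not counted, so nothing is read from the number 8. By the limma test, 28.5% of all genes fell in Mpcoi1. The Mpcoi1 responses were -1.56 for MpPPO22, -0.79 for MpDOXC16, -0.75 for MpLOX4, -0.58 for Mp2g15440, -0.35 for Mp4g16370, -0.31 for Mp1g10420, -0.30 for Mp6g09380 and -0.088 for MpDIR57. Of these, Mp1g10420 and MpDIR57 did not pass in Mpcoi1 (limma, adjusted p = 0.274 and 0.753), and MpDIR57 stood there at 0 to 0.122 CPM, within the limit of detection. Mp6g09380 had 178, 159 and 172 CPM in wounded Mpdes6fad5, 47.6, 48.7 and 42.6 CPM in wounded Mpcoi1 and 311, 327 and 315 CPM in wounded Tak-1, with 56.4 to 65.0 CPM in all mock libraries. Mp4g02070 also fell in Mpcoi1, by 0.42 (limma, adjusted p = 0.0341), with groups that overlapped.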

How the results depend on the processing

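The number of members was 201 with a constant of 0.1 CPM (123 of the 130 among them), 69 with 5 CPM (68), 261 with a margin of 0.5 and 58 with a margin of 1. Members also reduced in Mpcoi1 numbered 105, 37, 127 and 34 under the same settings, and 39 with a mean of at least 5 CPM. Members falling in Mpcoi1 numbered 3 with a constant of 5 CPM and 3 with voom. Other scalings gave 115 to 149 members, and leaving out a library gave 125 to 151 members, 57 to 72 reduced, 80 to 83 rising and 5 to 7 falling. With quantile normalization the all-gene median response was -0.15 in Mpdes6fad5, -0.11 in Mpcoi1 and -0.14 in Tak-1. Same-numbered wounded and mock Mpcoi1 libraries did not deviate together (correlations of -0.03, -0.16 and -0.08). With 3 libraries per group this cannot settle whether the numbers pair them. With a replicate block 82 members rose and 7 fell. The mean held-out median shortfall of -0.81 ran from -0.84 to -0.77. Of 1464 Mpcoi1 responses of named genes under alternatives, 24 lost and 3 gained a call, and no call turned to the opposite direction. Some responses that did not pass changed sign, as for MpPR15c, which ran from -0.094 to 0.365. Depth limits the 17 members under 5 CPM in wounded Tak-1.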

Other observations

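Some members lie close together on a chromosome. Counting members separated by at most 5 listed identifiers, 26 of the 130 fell into 11 runs. Of these 26, 19 were reduced in Mpcoi1, beside 51.5% of all members. How many of all genes with a Tak-1 response of at least 1 lie in such runs was not counted, so nothing is read from the number of runs. The longest run was the stretch of 5 dirigent genes from MpDIR65 to MpDIR39, all reduced in Mpcoi1. MpLOX6 and MpLOX8 formed a pair, and MpLOX4 stood next to Mp5g21670, a gene with no symbol. Mp5g21670 had 0.929, 0.973 and 0.661 CPM in wounded Mpdes6fad5, 0.171, 0.310 and 0.178 CPM in wounded Mpcoi1, and 5.17, 3.77 and 3.83 CPM in wounded Tak-1. Of the genes with a Tak-1 response of at least 1, members made up between 7.07% on chromosome 8 and 14.8% on chromosome 5, where 25 of 169 were members. No test was made of these counts, and reads shared between neighbouring copies were not examined.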
